A study of Homo sapiens with 4 samples.

Results

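The deubiquitinase module of SAGA was examined here through 9 genes, chosen by name, of the 28278 gene symbols in the count table. They were *USP22*, its paralogs *USP27X* and *USP51*, the partner subunits *ATXN7*, *ATXN7L3* and *ENY2*, and the relatives *ATXN7L1*, *ATXN7L2* and *ATXN7L3B*. RNA was sequenced from cells labelled HepG2, a human hepatocellular carcinoma line, in 2 control and 2 sgUSP22 libraries. Most of the liver genes that mark this line were listed at 0 or near it, as given below, which goes against that label. Both groups carried a lentiviral Cas9 and differed in the guide, a control sgRNA or an sgRNA against *USP22*, and both were treated with Sorafenib, a multikinase inhibitor, for 24 h. The study's methods name 1 sgRNA against *USP22* and stably infected cell populations rather than clones. No library of cells without Sorafenib was analysed here, so every comparison is between the 2 guides in treated cells.

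SAGA is a transcriptional coactivator that adds acetyl groups to histone H3 and removes ubiquitin from histone H2B. The second activity resides in a detachable module in which USP22 is the catalytic subunit, ATXN7L3 and the small protein ENY2 are needed to activate it, and ATXN7 tethers the module to the rest of the complex. USP27X and USP51 are related ubiquitin proteases that also bind ATXN7L3 and ENY2, and can remove ubiquitin from H2B outside SAGA. ATXN7L1 and ATXN7L2 can take the place of ATXN7 in the complex, and ATXN7L3B is a mainly cytoplasmic protein that binds ENY2. Expansion of a glutamine repeat in ATXN7 causes spinocerebellar ataxia type 7.

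Because paralogs can share reads, their sequences were compared first, using the MANE Select transcripts of GENCODE v44 on hg38. The coding sequences of *USP22* and *USP27X* aligned over 1160 bases with 81.1% identity, and those of *USP27X* and *USP51* over 1263 bases with 79.9% identity. The longest identical coding run was 20 bases between *USP22* and *USP27X* and 36 bases between *USP27X* and *USP51*. The 90 bases around the run shared by *USP22* and *USP27X* are shown for the 3 proteases, to let their likeness be seen base by base. Capitals mark bases that differ from *USP22*, at 16 positions in *USP27X* and 24 in *USP51*. The *USP22* window is exonic coding sequence at chr17:21017942-21018031 on the minus strand, that of *USP27X* lies at chrX:49880614-49880703 on the plus strand, and that of *USP51* at chrX:55487689-55487778 on the minus strand.
USP22: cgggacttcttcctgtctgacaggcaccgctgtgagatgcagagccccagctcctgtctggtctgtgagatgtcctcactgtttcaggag
USP27X: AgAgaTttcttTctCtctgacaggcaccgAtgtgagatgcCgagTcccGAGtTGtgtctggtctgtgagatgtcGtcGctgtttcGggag
USP51: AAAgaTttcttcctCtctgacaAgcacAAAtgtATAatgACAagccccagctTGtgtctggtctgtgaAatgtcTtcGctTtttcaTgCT

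Exact windows of 50 bases along each whole transcript were then searched for in the transcripts of all other GENCODE genes, on either strand. No such window of *USP27X*, *ATXN7*, *ATXN7L1*, *ATXN7L2* or *ENY2* occurred in another gene. In *USP22*, 14.8% of the 50-base windows occurred elsewhere, mainly in the overlapping antisense transcripts ENSG00000263986 and *CCDC144NL-AS1*, the latter listed at 0, 0 and 8, 0 counts in the control and sgUSP22 libraries. The share was 5.12% in *USP51*, 3.76% in *ATXN7L3B* and 1.95% in *ATXN7L3*, all from genes annotated on the opposite strand. For *ATXN7L3* that gene was *TMUB2*, with which it shares 125 exonic bases. *TMUB2* had 2442 and 2718 counts in the control and 2596 and 2551 in the sgUSP22 libraries. The strand setting of the counting is not given in the sources used here, so reads from these overlaps cannot be told apart. No window was shared between any of the 9 genes.

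The libraries held 62030307 to 64728272 counts each, and 15150 genes passed the filter on low counts and were tested, all 9 genes of the module and its paralogs among them. Levels are given as CPM, counts scaled to library size with TMM factors. A listed 0 leaves room for 3 counts, which is 0.0457 to 0.0492 CPM in these libraries, for counting error alone. Of 15 genes typical of hepatocytes and HepG2 cells, 8 were listed at 0 in all 4 libraries, *ALB*, *APOA1*, *APOB* and *TTR* among them, and the 15 together summed to 0.197 to 0.685 CPM. The keratins *KRT8* and *KRT18* were abundant, and *CDH1* and *KRT19* were listed at 0. Of the 6 mesenchymal genes, led by *VIM*, all but *COL1A2* were detected in every library. *COL1A2* was listed at 0 and 0 counts in the control and 7 and 0 in the sgUSP22 libraries. The summed epithelial genes ranged from 1759 to 1799 CPM in the control and from 1323 to 1381 CPM in the sgUSP22 libraries, and the summed mesenchymal genes from 1312 to 1327 and from 1037 to 1059 CPM. Single genes went both ways. Counts of *KRT8*, *KRT18*, *VIM*, *CDH2* and *TWIST1* were lower with sgUSP22. Those of *CLDN4* (184 and 258 against 552 and 536), *ZEB1* (1906 and 1836 against 2416 and 2410) and *COL1A1* (3492 and 3426 against 3738 and 4125) were higher. The part of these differences in the results below was not tested. Nothing in the labels says that libraries of a group came from separate cultures, so p-values measure only the spread between these libraries.

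The targeted gene was higher, not lower, in the libraries labelled sgUSP22. *USP22* (chr17:20999596-21043760, minus strand, 13 exons) was counted 16450 and 16537 times in the controls, against 20279 and 20368 times with sgUSP22, or 269.8 and 265.1 against 308.6 and 315.5 CPM. Both sgUSP22 libraries lay above both controls. The log2 fold change was 0.22 (standard error 0.034, 95% interval 0.15 to 0.30), a rise of 16.7%, with an adjusted p of 0.000394 (edgeR, quasi-likelihood F-test, Benjamini-Hochberg over all tested genes, as throughout). It was far from extreme, since 30.8% of all tested genes had a higher log2 fold change. A gene count sums reads over the whole gene and does not show whether a coding sequence was edited. The counts therefore check the amount of *USP22* RNA and not the protein. The paper checked the loss of the protein by Western blot in its cell lines and by immunohistochemistry in xenograft tumours. In bulk RNA, a change in the share of cells that express a gene and a change in RNA per cell cannot be told apart. Directions given here follow the labels.

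*USP27X*, the single-exon paralog of *USP22* on the X chromosome (chrX:49879484-49882558, plus strand), rose most. Control libraries 1 and 2 held 61 and 65 counts of it, and sgUSP22 libraries 1 and 2 held 196 and 206. In CPM these were 1.0 and 1.04 against 2.98 and 3.19, so the groups were far apart and the replicates of each lay close together. The log2 fold change was 1.59 (standard error 0.22, 95% interval 1.11 to 2.08, edgeR adjusted p = 0.000183), a 3.02-fold rise with a 95% interval of 2.15 to 4.23. Only 2.26% of tested genes had a higher log2 fold change. Leaving out each library in turn gave log2 fold changes of 1.54 to 1.63. It was compared with 64 other genes within 5 Mb on either side that had an average log2 CPM of at least 1. These neighbours had a median log2 fold change of -0.024, and 1 neighbour exceeded *USP27X*. Tested genes below that level were left out of this comparison.

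*USP51*, a paralog also on the X chromosome (chrX:55484616-55489848, minus strand), was near the detection limit. Its counts were 10 and 4 in the control and 0 and 10 in the sgUSP22 libraries, and the groups overlapped. The log2 fold change of -0.55 had a 95% interval of -3.38 to 2.28 (edgeR adjusted p = 0.748), so neither a rise of the size seen in *USP27X* nor a fall could be told from no change at this depth. Without sgUSP22 replicate 1, the library listed at 0, the fitted log2 fold change was 0.43.

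**Figure D1:**
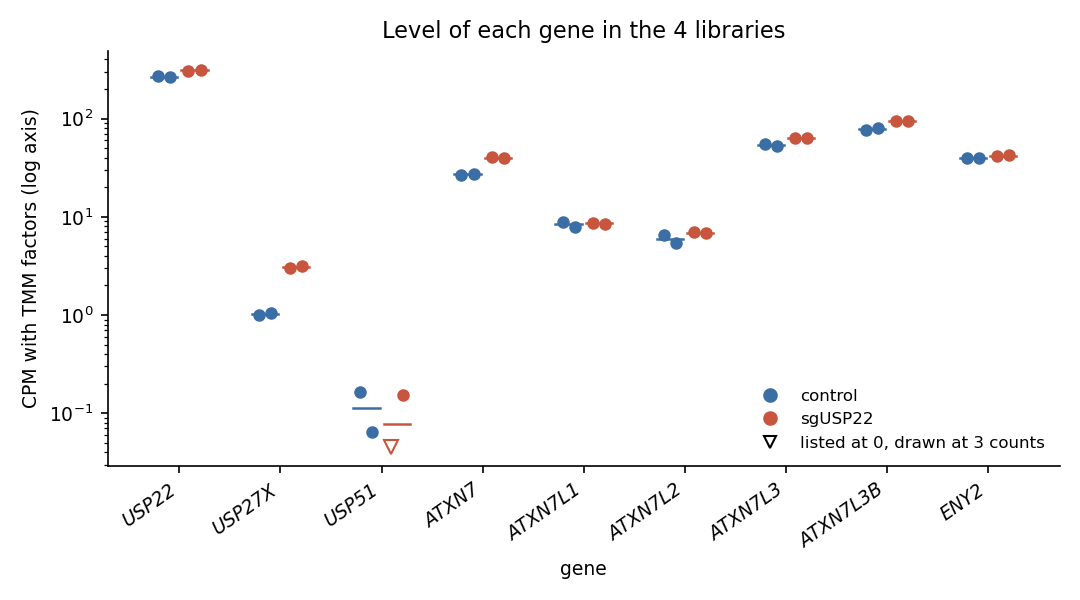
Level of each gene in the 4 libraries, in CPM with TMM factors on a log axis. Points are libraries (blue control, red sgUSP22), horizontal lines are group means (n = 2), and the open triangle marks the *USP51* library listed at 0, drawn at the CPM of 3 counts. *USP22* lies between 265.1 and 315.5 CPM, *USP27X* rises from about 1 to about 3 CPM, and *USP51* stays below 0.2 CPM.

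Levels of the 3 proteases were compared with each other per kilobase of merged exon length. *USP22* was at 39.5 ± 0.49 CPM per kb in the control libraries and 46.0 ± 0.72 CPM per kb in the sgUSP22 libraries (SD, n = 2 each). *USP27X* was at 0.332 ± 0.0095 and 1.004 ± 0.048 CPM per kb in the same groups. *USP51* was at 0.025 ± 0.015 and 0.017 ± 0.024 CPM per kb. *USP27X* thus made up 0.810% and 0.859% of the summed level of the 3 genes in the control libraries and 2.09% and 2.18% in the sgUSP22 libraries, and *USP22* 99.1% against 97.8% on average. The log2 ratio of *USP27X* to *USP22* rose from -6.89 ± 0.059 to -5.52 ± 0.046 (SD, n = 2 each), a difference of 1.37. The exact two-sided permutation test gave p = 0.333, the smallest p that 2 libraries against 2 allow. In absolute terms the difference was 2.07 CPM in *USP27X* and 44.6 CPM in *USP22*.

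Of the subunits that activate and anchor USP22, *ATXN7* and *ATXN7L3* rose and *ENY2* did not pass the test. *ATXN7L3* (chr17:44191805-44200113, minus strand), the subunit that binds and activates the protease, had 3348 and 3292 counts in the control and 4197 and 4064 in the sgUSP22 libraries, or 54.9 and 52.8 against 63.9 and 63.0 CPM. The groups did not overlap, and the log2 fold change was 0.24 (standard error 0.048, edgeR adjusted p = 0.00219). *ATXN7* (chr3:63863155-64003462, plus strand), the anchor of the module, had 1624 and 1710 counts against 2643 and 2568, or 26.6 and 27.4 against 40.2 and 39.8 CPM. The log2 difference was 0.57 (standard error 0.061, 95% interval 0.43 to 0.70, edgeR adjusted p = 4.02e-05), the second largest rise among the 9 genes. At 1.48-fold it lay just under the 1.5-fold threshold that the study adds. It passed that threshold with library size alone as the scaling (log2 fold change 0.62) and without control replicate 2 (0.59). When trends with GC content and length were removed, the log2 fold change of *ATXN7* was 0.44 (edgeR adjusted p = 0.000214), farther below the threshold. *THOC7* overlaps *ATXN7* by 2 exonic bases on the other strand and had 3062 to 3172 counts in the 4 libraries.

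*ENY2* on chromosome 8, the small subunit that SAGA shares with an mRNA export complex, had 2449 and 2488 counts in the control and 2721 and 2761 in the sgUSP22 libraries, or 40.2 and 39.9 against 41.4 and 42.8 CPM. The groups did not overlap, but the log2 fold change of 0.073 (standard error 0.054, 95% interval -0.05 to 0.19) was not past the threshold (edgeR adjusted p = 0.289). When trends with GC content and merged exon length were removed, the value was -0.12 (edgeR adjusted p = 0.0704), so its direction depended on this correction. The log2 ratio of *ENY2* to *ATXN7L3* per kb was -0.80 and -0.75 in the control and -0.97 and -0.90 in the sgUSP22 libraries, a difference of -0.16 against a largest SD of 0.048. By contrast, the log2 ratio of *USP22* to *ATXN7L3* was 1.95 and 1.98 against 1.93 and 1.98, overlapping between the groups, with a mean difference of -0.014. These ratios use the uncorrected counts, and with the GC and length correction the log2 fold change was 0.36 for *ATXN7L3* and 0.28 for *USP22*.

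*ATXN7L3B* (chr12:74537835-74545430, plus strand), a single-exon relative of *ATXN7L3*, had 4695 and 4960 counts against 6263 and 6045, or 77.0 and 79.5 against 95.3 and 93.6 CPM. The log2 difference was 0.27 (standard error 0.042, edgeR adjusted p = 0.000402), and it was not called once trends with GC content and length were removed (log2 fold change 0.075, edgeR adjusted p = 0.178). The log2 ratio of *ATXN7L3B* to *ATXN7L3* per kb, from the uncorrected counts, overlapped between the groups, with a mean difference of 0.036. With the GC and length correction the log2 fold change was 0.075 for *ATXN7L3B* and 0.36 for *ATXN7L3*.

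The other ataxin-7 relatives did not pass the test. *ATXN7L1* (chr7:105604772-105876599, minus strand) had 535 and 496 counts in the control and 569 and 549 in the sgUSP22 libraries, and its CPM overlapped between the groups, with a log2 fold change of 0.037 (95% interval -0.22 to 0.29, edgeR adjusted p = 0.812). Its sign turned without control replicate 2 and after the GC and length correction, to -0.032 and -0.033. *ATXN7L2* (chr1:109483479-109492804, plus strand) had 395 and 334 counts against 457 and 444, or 6.48 and 5.35 against 6.95 and 6.88 CPM. These did not overlap, and the log2 fold change of 0.23 (95% interval -0.08 to 0.54, edgeR adjusted p = 0.202) had a wide interval. It was 0.094 without control replicate 2 and 0.37 without control replicate 1. Of the summed level per kb of the 3 ataxin-7 genes, *ATXN7* made up 43.96% and 48.3% in the control and 53.4% and 53.5% in the sgUSP22 libraries. *ATXN7L1* made up 25.8% and 25.01% against 20.5% and 20.4%, and *ATXN7L2* 30.2% and 26.7% against 26.1% and 26.1%. The difference in the share of *ATXN7L2* was -2.33 percentage points. It was -0.56 without control replicate 1 and -4.10 without control replicate 2. The log2 ratio of *ATXN7* to *USP22* rose from -4.48 ± 0.047 to -4.14 ± 0.034 (SD, n = 2 each), and the exact permutation test again gave its smallest possible p of 0.333. This ratio and the shares use the uncorrected counts. With the GC and length correction the log2 fold change was 0.44 for *ATXN7*, 0.34 for *ATXN7L2* and 0.28 for *USP22*.

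**Figure D2:**
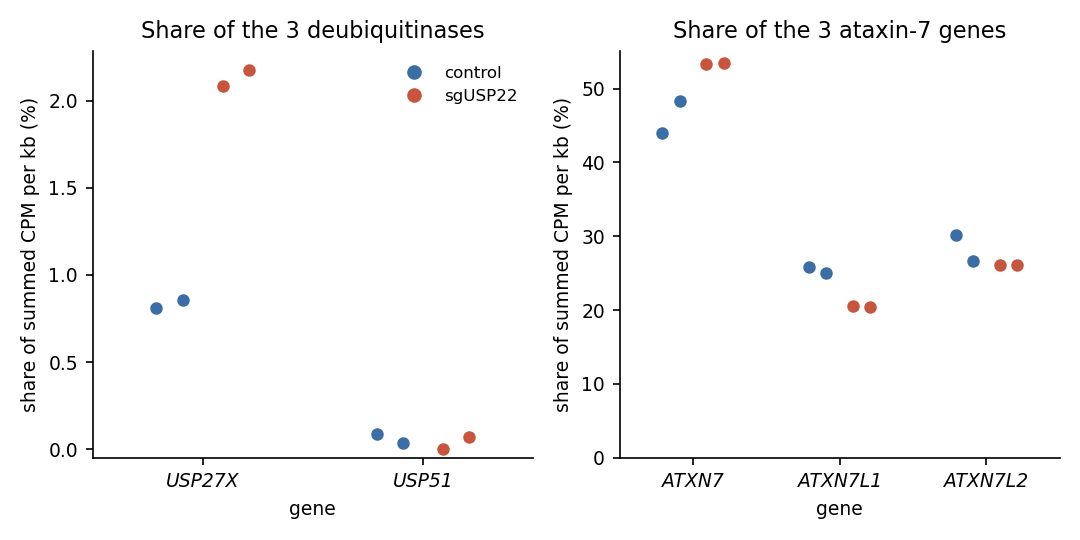
Share of the summed CPM per kb of merged exon length held by each gene in each library, for *USP27X* and *USP51* among the 3 proteases (left, with *USP22* making up the rest) and for the 3 ataxin-7 genes (right). Points are libraries, blue for control and red for sgUSP22. *USP27X* moves from 0.810% and 0.859% to 2.09% and 2.18%, and *ATXN7* from 43.96% and 48.3% to 53.4% and 53.5%.

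Across the 9 genes, 5 were called at an edgeR adjusted p below 0.05, *USP22*, *USP27X*, *ATXN7*, *ATXN7L3* and *ATXN7L3B*, and all 5 were higher in the libraries labelled sgUSP22. Among all 15150 tested genes 52.5% were called in either direction and 26.8% were called higher, so calls at this threshold were common, and 25.8% were called lower. With the added 1.5-fold threshold 1 of the 9 genes remained, *USP27X*, against 8.88% of all tested genes. The groups did not overlap and sgUSP22 was higher in 7 of the 9 genes, which was so for 38.3% of tested genes. No gene of the 9 was called lower. The median log2 fold change of the 9 genes was 0.23, beside 0.0009 over all tested genes.

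**Figure D3:**
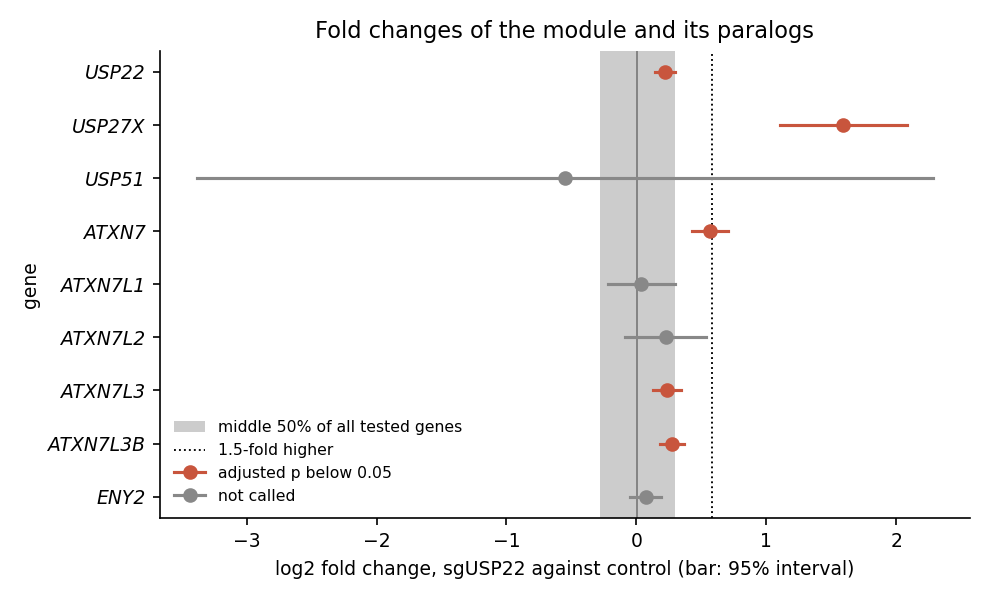
Log2 fold change of each gene, sgUSP22 against control, with its 95% interval from edgeR. Red marks an adjusted p below 0.05, the grey band the middle 50% of all tested genes (-0.28 to 0.30), and the dotted line a 1.5-fold rise. *USP27X* at 1.59 and *ATXN7* at 0.57 lie beyond the band, the other 3 called genes lie within it, and the interval of *USP51* spans most of the axis.

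Per kilobase of merged exon length, the order of the levels in the control libraries was *USP22* (39.5 CPM per kb), *ATXN7L3B* (10.3), *ATXN7L3* (10.1), *ENY2* (5.90), *ATXN7* (1.76), *ATXN7L2* (1.09), *ATXN7L1* (0.974), *USP27X* (0.332) and *USP51* (0.025). Neighbours overlapped in their libraries for *ATXN7L3B* and *ATXN7L3* and for *ATXN7L2* and *ATXN7L1*. In the sgUSP22 libraries *USP27X* (1.004) and *ATXN7L1* (0.9997) overlapped, and *USP27X* stood above *ATXN7L1* by its mean. The order was sensitive to the length used. With the length of the MANE Select transcript, *ENY2* stood at 13.8 CPM per kb in the control libraries, level with *ATXN7L3* at 13.6, and in the sgUSP22 libraries *USP27X* at 1.004 remained below *ATXN7L1* at 1.504. *USP22* was the highest and *USP51* the lowest under both lengths.

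Among the 11905 tested genes with an average log2 CPM of at least 1, those whose profile over the 4 libraries, centred on its own mean, was closest to that of *USP22* were *EIF3J*, *THAP9*, *ZNF217*, *ANKRD17* and *LAMP2*, with Euclidean distances of 0.0067 to 0.016 on the log2 CPM scale. *EIF3J*, a translation initiation factor subunit, was at 113.8 and 111.3 CPM in the control and 130.3 and 132.9 CPM in the sgUSP22 libraries. A further 47 genes lay within 2 times the distance of the fifth, so the order among them is not sharp. Within the module, *ATXN7L3* was nearest, at a distance of 0.046 and rank 145, and *USP27X* was farthest of those compared, at 1.37 and rank 11630. *THAP9* was not called at its lower level of 3.22 to 3.86 CPM (edgeR adjusted p = 0.282). The 4 points of each profile share their 2 groups, so the likeness includes the group difference.

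RefSeq promoters on GRCh38.p14 were looked up for 8 of the genes, leaving out *ENY2*, and found for 6, and the 250 bases before the start are shown for the targeted gene and the 2 genes that rose most. *USP51* and *ATXN7L3B* had no entry. Capitals mark matches, on either strand, to GGGCGG (the GC box), CCAAT and TATAAA. The windows lie at chr17:21043012-21043261 (minus strand) for *USP22*, chrX:49879234-49879483 (plus strand) for *USP27X* and chr3:63863617-63863866 (plus strand) for *ATXN7*, the start of its MANE Select transcript among 6 listed.
USP22: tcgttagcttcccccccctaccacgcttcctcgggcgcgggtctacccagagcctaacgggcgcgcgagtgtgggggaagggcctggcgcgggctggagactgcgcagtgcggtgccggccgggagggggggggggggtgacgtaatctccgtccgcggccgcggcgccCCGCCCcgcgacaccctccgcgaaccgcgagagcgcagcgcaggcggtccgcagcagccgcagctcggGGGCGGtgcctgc
USP27X: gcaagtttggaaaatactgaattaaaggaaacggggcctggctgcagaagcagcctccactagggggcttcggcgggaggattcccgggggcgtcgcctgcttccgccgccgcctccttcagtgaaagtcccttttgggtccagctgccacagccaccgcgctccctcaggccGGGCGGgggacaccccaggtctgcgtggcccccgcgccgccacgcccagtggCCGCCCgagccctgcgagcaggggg
ATXN7: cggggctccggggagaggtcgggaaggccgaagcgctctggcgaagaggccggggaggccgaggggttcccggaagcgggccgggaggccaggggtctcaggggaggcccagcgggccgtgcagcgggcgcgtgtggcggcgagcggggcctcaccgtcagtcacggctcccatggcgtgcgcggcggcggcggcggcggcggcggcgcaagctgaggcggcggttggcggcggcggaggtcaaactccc
*USP22* and *USP27X* each held 2 matches to GGGCGG and *ATXN7* none, while 42.6% of the 35116 promoter windows of the same length held at least 1. None of the 3 windows held CCAAT or TATAAA, which 32.0% and 10.7% of all windows did. The windows held 36, 21 and 37 CpG dinucleotides for *USP22*, *USP27X* and *ATXN7*, beside a median of 11 over all windows and a middle range of 3 to 23. The promoters of the 3 genes therefore had no motif in common among those searched, and the letters say nothing of which factors bind there.

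Genes of the other modules of SAGA were called in both directions. Among all tested genes 26.8% were called higher and 25.8% lower. The acetyltransferase module, which acetylates histone H3, had 2 of 5 genes higher, 2 lower and 1 not called. *KAT2A*, its main catalytic subunit, was at 98.0 and 93.3 CPM in the control and 73.6 and 79.6 CPM in the sgUSP22 libraries (log2 fold change -0.32, edgeR adjusted p = 0.000448), and the adaptor *TADA2B* was at 21.99 and 20.1 against 27.1 and 25.4 CPM (0.32, edgeR adjusted p = 0.00778). Of the 11 genes of the core and *TRRAP*, the subunit bound by activators, 3 were higher, 3 lower and 5 not called. The structural subunits at the extremes were *TADA1*, at 26.1 and 25.1 against 36.7 and 36.7 CPM (log2 fold change 0.52), and *TAF12*, at 21.7 and 22.1 against 16.9 and 14.9 CPM (-0.46). Of the 2 splicing factors that SAGA holds, *SF3B3* was slightly lower (log2 fold change -0.16) and *SF3B5* was not called. No gene of these 3 modules was called at 1.5-fold in either direction, beside 1345 higher and 1098 lower among all 15150 tested genes.

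The enzymes that place ubiquitin on H2B, taken here with their cofactors, oppose the module. Of 11 genes, 4 were higher, 2 lower and 5 not called, beside 26.8% higher and 25.8% lower among all tested genes. Of all tested genes 8.88% were called at least 1.5-fold higher. *CTR9*, the scaffold of the PAF1 complex that guides H2B ubiquitination during elongation, was the single one past 1.5-fold. It was at 29.4 and 29.6 CPM in the control and 58.2 and 61.6 CPM in the sgUSP22 libraries, giving a log2 difference of 1.02 (standard error 0.055, edgeR adjusted p = 5.52e-07). Among its partners in the complex *CDC73* was at a log2 fold change of 0.21 and *PAF1* at -0.15, both called, while *LEO1* (0.11) and *RTF1* (0.023) were not. The ubiquitin ligases themselves, *RNF20* (-0.019) and *RNF40* (0.008), were not called, and their partner *WAC* was higher (0.34, edgeR adjusted p = 4.98e-05). Of the conjugating enzymes, *UBE2A* was lower (-0.30) and *UBE2B* higher (0.17).

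Other proteases and cofactors that remove ubiquitin from histone H2A or H2B were called higher in 6 of 12 tested genes, lower in 1 and not called in 5, beside 26.8% higher and 25.8% lower among all tested genes. The protease *USP7*, best known for acting on MDM2 and p53, was at 107.2 and 103.4 CPM in the control and 149.1 and 151.6 CPM in the sgUSP22 libraries (log2 fold change 0.51, edgeR adjusted p = 4e-06). *BRCC3*, a protease of BRCA1-containing complexes, was at 28.8 and 27.6 against 37.1 and 41.0 CPM (0.47, edgeR adjusted p = 0.000322). *USP46* (0.36), *USP12* (0.13) and their cofactor *WDR48* (0.24) were higher, and *BAP1*, which acts on H2A, was lower (-0.22). The median of the 12 genes was 0.18. Of 8 genes whose proteins have been described as substrates of USP22, 5 were lower, 1 higher and 2 not called, beside the same 25.8% lower and 26.8% higher over all tested genes. The cell cycle regulator *CCND1* was at 301.6 and 316.4 against 228.6 and 217.9 CPM (log2 fold change -0.47, edgeR adjusted p = 8.58e-06), and *MYC* at 819.9 and 795.1 against 697.3 and 681.4 CPM (-0.23). *CCNB1* was higher (0.17) and *CDK11B* was not called (-0.047). In all 6 lists, 16 of 49 tested genes were higher, 14 lower and 19 not called, with a median log2 fold change of 0.034. After the GC and length correction 10 were higher and 13 lower. Over all tested genes that correction gave 3680 higher and 3857 lower, in place of 4057 and 3904.

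**Figure D4:**
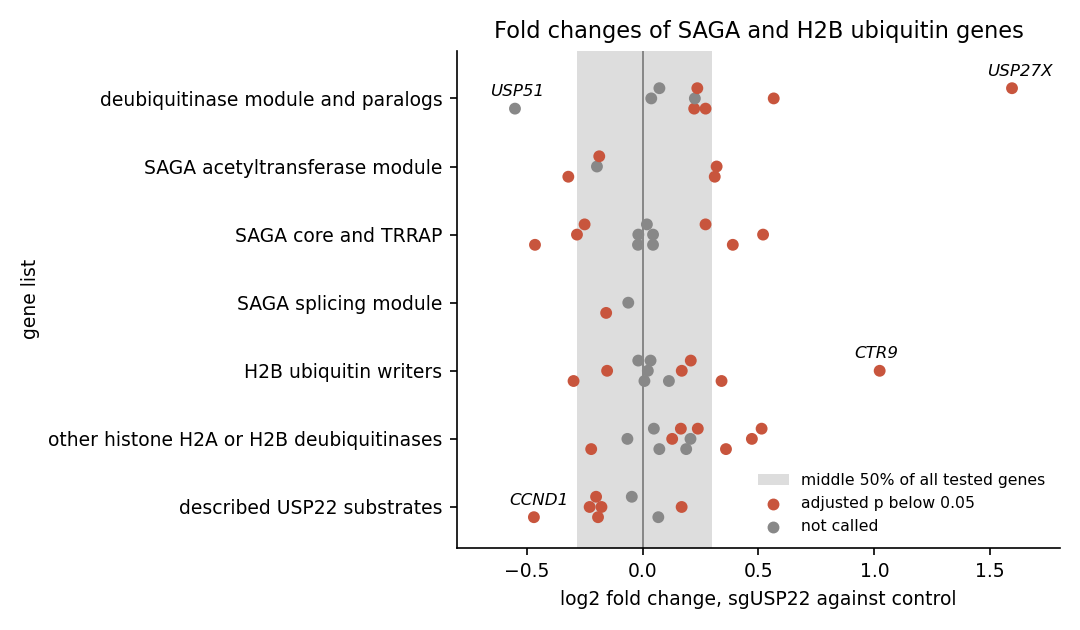
Log2 fold change, sgUSP22 against control, of each tested gene of the deubiquitinase module with its paralogs and of the 6 other lists. Red marks an adjusted p below 0.05 from edgeR and the grey band the middle 50% of all tested genes. *USP27X* at 1.59 and *CTR9* at 1.02 are the genes farthest to the right, and each list but the splicing module, whose 2 genes lie below 0, has genes on both sides of 0.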

How the data were processed

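RNA from control and sgUSP22 cells, labelled HepG2 although markers of that line were largely at 0, was sequenced with 2 libraries per group. The authors aligned reads to hg38 with HISAT2 2.2.1 and deposited whole-number gene counts from StringTie 2.2.1, without normalization, which they compared with DESeq2 1.34.0. StringTie derives counts from coverage, so a 0 means that a gene is listed at 0. The annotation, strand setting and read length are not given in the sources used here. All 4 sample columns were assigned by name.

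Counts were tested in R 4.3.3 with edgeR 4.0.16 (TMM, filterByExpr with a minimum count of 10, glmQLFit, glmQLFTest, group only), two-sided, with Benjamini-Hochberg adjustment over 15150 genes and calls at 0.05. The standard error is the log2 fold change divided by the root of F. The procedure was tested on simulated data. Replicates of a group differed beyond sampling noise, the chi-square per gene averaging 7.30 and 7.60. Positions, lengths and overlaps came from GENCODE v44, to which 26202 of the 28278 symbols were matched, and sequences from its transcripts and from RefSeq promoters. It may not be the annotation the authors used.

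All 9 genes of the module and its paralogs are named. From each other list, genes past an adjusted p below 0.05 and 1.5-fold are named, or else the 2 largest among those called. Others, such as *CDC73* or *USP46*, were named after their values were seen, to complete a complex. *WDR61* and *SKIC8* name the same gene, counted once, and *USP44* did not pass the filter. The members and lists were chosen with earlier results of these data known. Alternatives were DESeq2 1.42.0, RLE, upper-quartile or no factors, no filter or a mean of 50 counts, and the replicate number as a block. Further ones were lowess correction (span 0.3) for GC content and merged exon length, the 1.5-fold threshold, other lengths for ratios, and leaving out each library.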

Additional observations from a re-analysis of the deposited data

How the results depend on the processing

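Depth limited *USP51* most and *USP27X* somewhat, and 2 libraries per group limited every interval. Of 105 alternative values of the 9 log2 fold changes, 100 kept their direction and their side of the threshold. *USP51* passed the filter in only 2 of the 4 fits that left out 1 library, at -1.07 without control replicate 2 and 0.43 without sgUSP22 replicate 1. *ATXN7L2* ranged from 0.094 to 0.37 when 1 library was left out, and *ATXN7L3* was 0.36 under the GC and length correction. *ATXN7L1* was -0.033 under this correction and ranged from -0.032 to 0.11 when 1 library was left out. Under the correction *ENY2* was -0.12 and *ATXN7L3B* 0.075, no longer called, and 10 rather than 16 genes of the other lists were higher. Over all tested genes 3680 rather than 4057 were higher. The cause was not tested. Over the alternatives that used all 4 libraries, *USP22* ranged from 0.22 to 0.28, *USP27X* from 1.59 to 1.68 and *ATXN7* from 0.44 to 0.62. The lowest value of *ATXN7* was that under the GC and length correction.

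With the 1.5-fold threshold 1345 genes were higher and 1098 lower, in place of 4057 and 3904, 1 member was higher in place of 5, and 1 gene of the other lists was higher and 0 were lower. The difference in the share of *USP22* among the 3 proteases was -1.27 percentage points, -0.581 with raw counts and -0.981 with the longest or the MANE Select transcript, and that of *USP27X* was 1.30, 0.599 and 1.001. The difference in the share of *ATXN7L1* was -4.97, and -3.95 with the MANE Select transcript. The MANE Select length, the ratio of *USP27X* to *USP22* and the shares of *USP27X* and *USP51* were chosen after seeing the data.

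Libraries with the same replicate number did not deviate together (correlation 0.042 over tested genes, 2 numbers). With 2 libraries per group this cannot show whether the libraries were paired by culture or preparation. Fitting the replicate block gave 4095 higher and 3896 lower genes, the log2 fold change was 0.22 for *USP22* and 1.59 for *USP27X*, and no call on the 9 genes changed.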
